A study of Mus musculus with 24 samples.

Results

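The response of the wild-type mouse kidney to 5 days of unilateral ureteral obstruction (UUO) was measured by RNA sequencing and examined across all genes. It rests on 8 of the 24 libraries of the series: the 4 from control kidneys at day 0 and the 4 labelled UUO at day 5. The libraries were chosen by their labels alone. All 8 are labelled PLD4+/+, with the phospholipase D family gene that is deleted in the mice labelled PLD4-/- intact, and no other allele or agent is named. The libraries labelled PLD4-/- at days 0 and 5 (4 each) were used in the last comparison. The other 8 libraries, of day 10, entered only the shared fit, where they helped set the genes tested, the scaling and the estimate of spread. The labels do not give age, sex, strain, which kidney was taken, whether control mice had surgery, or whether each library is a separate animal. P-values therefore measure a spread between libraries, estimated over all 24 and not the 8 alone, which may be technical.

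In UUO the ureter of a single kidney is tied, so that urine cannot drain and pressure builds up in its tubules. The nephron is lined by epithelial segments in series (proximal tubule, thick ascending limb, distal convoluted tubule and collecting duct), each with its own transporters, and the proximal tubule pays for its transport mainly by oxidative phosphorylation. The obstructed kidney is a standard model of tubular injury, inflammation and fibrosis, in which the epithelium loses transporters and the space between the tubules fills with leukocytes and matrix-producing cells.

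Total counts per library ran from 13833486 to 15143836 at day 0 and from 12455355 to 22542866 at day 5. The first principal component of the 8 libraries, with 79.8% of the variance, separated the days. On the second, with 8.81%, WT day 5 replicate 4 lay at -60.5 and all others between 1.11 and 32.5, where replicate 3 of day 5 was highest. The summed level of 5 proximal tubule markers (Lrp2, Slc34a1, Slc5a2, Slc22a6 and Cubn) was between 13491 and 16704 CPM at day 0 and between 1753 and 6525 CPM at day 5, with replicate 3 lowest and replicate 4 highest. Y-linked transcripts such as Ddx3y (84.1, 84.00, 70.6 and 74.9 CPM at day 0 and 82.3, 82.5, 91.4 and 72.8 at day 5) were present in all 8 libraries. Of the day 10 libraries, WT replicates 2 and 3 stood apart, at -85.0 and -69.3 on the second component of all 24. The others of the 24 lay between -19.9 and 26.6 there. Markers that define kidney segments (Lrp2, Umod, Slc12a1 and Aqp2) were counted in all 8.

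All levels are library-size normalised counts (CPM) after scaling by trimmed means of M values (TMM), and changes are log2 fold changes of day 5 over day 0 with their standard errors. Rose, fell, higher and lower are used of genes with an adjusted p under 0.05 in edgeR's quasi-likelihood test, with Benjamini-Hochberg adjustment over the 15080 genes tested. By that rule 31.0% of the genes were higher and 25.6% lower, and the median change of all genes was 0.08. A change of at least 2-fold was met by 19.1% (higher) and 9.34% (lower), and in 28.2% the 4 libraries of day 5 were all above the 4 of day 0, in 24.9% all below. The direction of small changes depends on the scaling, since TMM factors were 0.764 to 0.806 at day 0 and 0.976 to 1.16 at day 5. By total counts alone the median gene moved to 0.55 and on log2(FPKM + 1) to 0.53, with 84.5% and 90.2% of called genes higher against 54.7%. The low-count filter took all 6 groups, and in a fit of the 8 libraries alone 14136 genes were tested. A gene almost without counts at day 0 passed it through groups where it is high, so it could hardly be seen to fall. In whole tissue, fewer cells of a type and less RNA per cell cannot be told apart. Genes named beyond those that the naming rule picks were chosen after their values were seen and are listed with the methods.

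Among called genes Kap lost and Spp1 gained most in absolute level. Kap, the androgen-regulated kidney protein of the mouse proximal tubule, stood at 64527, 56363, 55703 and 57123 CPM at day 0 and 17719.8, 11813, 14264 and 16810.2 CPM at day 5. All day 5 libraries were below all of day 0, at -1.95 ± 0.74 (adjusted p = 0.0297). That call ends without WT day 5 replicate 2 (adjusted p = 0.0771), WT day 5 replicate 1 (0.0536) or 3 (0.0696), or WT day 0 replicate 1 (0.0516), and by total counts (0.0681). Spp1, osteopontin, a secreted matrix and cytokine-like protein, stood at 955, 1084, 1501 and 935 CPM at day 0 and 20756, 20273, 29122 and 20069 CPM at day 5. The ranges lay far apart, with replicate 3 highest at day 5, and the change was 4.33 ± 0.39 (20.2-fold, adjusted p = 3.08e-08). Selenoprotein P (Sepp1), the selenium carrier, fell from 6539 to 1879.5 CPM (-1.80 ± 0.35) and the acyl-CoA synthetase Acsm2 from 8269 to 1639 CPM (-2.34 ± 0.74). Clusterin (Clu), a secreted chaperone, rose from 481 to 1878 CPM (1.96 ± 0.37), apolipoprotein E (Apoe) from 78.5 to 966 CPM (3.62 ± 0.33) and the actin-binding Tmsb4x from 217 to 1057 CPM (2.29 ± 0.41). In relative terms Timp1, an inhibitor of matrix proteases, was among the leading genes, at 0.346, 0.595, 0.269 and 0.172 CPM at day 0 and 28.4, 24.2, 44.02 and 23.5 CPM at day 5. Its lowest day 5 library was above every day 0 library many times over (6.40 ± 1.09). Ttr, transthyretin, the thyroxine carrier, fell from 271 to 25.5 CPM (-3.41 ± 0.92) and the potassium channel subunit Kcng1 from 10.1 to 0.785 CPM (-3.64 ± 0.71).

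**Figure D1:**
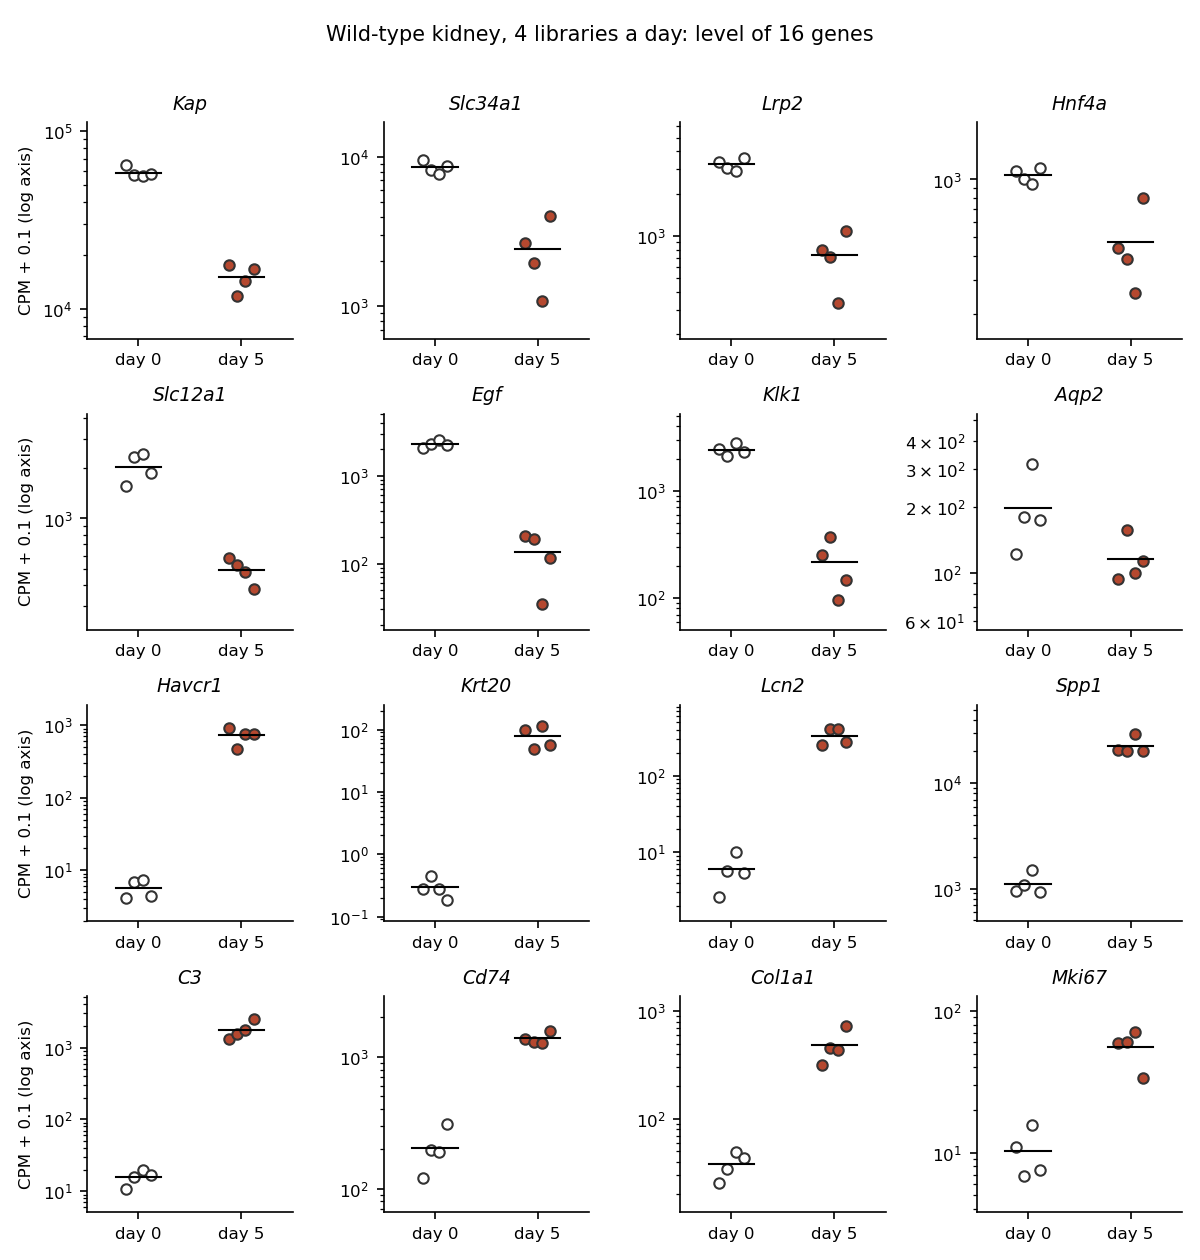
Level in each of the 8 wild-type libraries (CPM on a log axis, with 0.1 added so that zeros can be drawn) for 16 genes. Open circles are day 0, filled circles day 5 and bars the mean of 4 libraries. Of these 16 only Aqp2 has libraries of the 2 days that overlap.

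Sodium, chloride and potassium transport fell along the nephron, with 19 of 30 listed genes lower and 1 higher (25.6% and 31.0% over all genes). The median change of the list was -1.13. Slc12a1, the Na-K-2Cl cotransporter of the thick ascending limb, stood at 1555, 2332, 2421 and 1884 CPM at day 0 and 577, 529, 479 and 378 CPM at day 5. Every day 5 library was under every day 0 library, and the change was -2.06 ± 0.60 (adjusted p = 0.00682). Klhl3, an adaptor of the ubiquitin ligase that degrades WNK kinases, fell too (-2.35 ± 0.44). Umod, uromodulin, a protein that the same limb secretes into urine, did not pass, at 5229.9, 6502, 7698 and 5228 CPM at day 0 and 2774, 3152, 2525 and 3725 CPM at day 5. Its day 5 libraries also lay below those of day 0, but the change was -1.02 ± 0.53 (adjusted p = 0.107; 0.00323 in a fit of the 8 libraries alone). Ptgs1, cyclooxygenase 1, was the 1 gene of the list that rose (0.62 ± 0.18).

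In the distal nephron Egf and Pvalb dropped steeply, and the loss was uneven in the collecting duct. Summed, 2 distal convoluted tubule genes stood at 937 to 1349 CPM at day 0 and 265 to 398 CPM at day 5. Egf, made by the distal convoluted tubule and thick limb, stood at 2054, 2281, 2574 and 2226 CPM at day 0 and 208, 189, 34.8 and 115 CPM at day 5. It was lowest in replicate 3 and changed by -4.06 ± 0.95 (adjusted p = 0.00134). Pvalb, the calcium buffer parvalbumin, was at 27.4, 27.3, 35.6 and 24.4 CPM at day 0 and 0.297, 0, 0 and 0.136 CPM at day 5, with no count in 2 of the 4 day 5 libraries. Both markers kept the days apart in every library. Of water channels and vasopressin genes 7 of 12 fell and none rose (median -1.28; 4 fell without WT day 5 replicate 3 and 3 by total counts). Aqp8 (-2.97 ± 0.60) and Aqp11 (-2.04 ± 0.48), channels of the proximal tubule, fell. Aqp2, the vasopressin-regulated channel of principal cells, stood at 122, 181, 315 and 175 CPM at day 0 and 93.3, 157, 99.9 and 113 CPM at day 5. The Aqp2 libraries overlapped between days, and the change of -0.77 ± 0.66 did not pass (adjusted p = 0.326; 0.0402 in a fit of the 8 libraries alone). Of the acid-base handling intercalated cell 9 of 17 genes fell and none rose, among them the anion exchanger Slc4a1 (-3.34 ± 0.65), the insulin receptor-related kinase Insrr (-2.34 ± 0.43) and the ammonia transporter Rhbg (-2.26 ± 0.45). Car2, carbonic anhydrase 2, went from 467 to 369 CPM and was not called (-0.34 ± 0.22).

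Phosphate and calcium handling changed in both directions. Of the list 13 of 25 genes fell and 6 rose (10 fell and 9 rose by total counts, 8 fell and 10 rose on log2(FPKM + 1)). Slc34a1, the main phosphate cotransporter of the proximal tubule, stood at 9591, 8249, 7766 and 8674 CPM at day 0 and 2671, 1939.5, 1087 and 4048 CPM at day 5. Replicate 3 was lowest and replicate 4 highest at day 5, all 4 were below day 0, and the change was -1.81 ± 0.76 (adjusted p = 0.0459). The call ends by total counts (adjusted p = 0.0962), and without any 1 of WT day 0 replicates 1 to 4 (adjusted p = 0.0774, 0.0655, 0.0616 and 0.0688) or of WT day 5 replicates 1 to 3 (0.0802, 0.104 and 0.13). Its relative Slc34a2, the isoform known from lung and gut, rose from 7.09, 6.55, 9.24 and 5.84 to 37.9, 20.5, 19.1 and 51.3 CPM (2.17 ± 0.34). Cyp27b1, which makes active vitamin D, stood at 8.13, 4.51, 4.93 and 3.27 CPM at day 0 and 45.3, 34.7, 56.5 and 25.7 CPM at day 5. All 4 day 5 libraries were higher, at 2.96 ± 0.37, whereas Cyp24a1, which degrades it, did not pass (-0.77 ± 0.37; 0.00793 as adjusted p in a fit of the 8 libraries alone). Cldn14, a claudin that restricts calcium uptake in the thick limb, rose from 0.174 to 2.18 CPM (3.60 ± 0.65) and the calcium channel Trpv6 from 2.78 to 16.5 CPM (2.56 ± 0.34). Against these, the calcium buffer Calb1 fell from 673 to 102 CPM (-2.73 ± 0.58), with Kl, the FGF23 co-receptor klotho (-2.14 ± 0.65) and S100g, the calcium-binding calbindin of the small kind (-2.26 ± 0.75).

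By TMM, more fell than rose in the lists of transporters by which the proximal tubule takes up and secretes solutes. Of organic ion and drug transporters 25 of 36 fell and 5 rose, with a median of -1.64. Without WT day 5 replicate 3, the library lowest in proximal tubule markers, 14 of the list fell, and without replicate 2 16. Slc22a7, an organic anion transporter, stood at 752, 738, 671 and 1042 CPM at day 0 and 108, 35.2, 30.3 and 38.6 CPM at day 5. Replicate 1 stood highest among the day 5 libraries, and all 4 were below day 0 (-3.92 ± 1.05, adjusted p = 0.00379). The organic anion carrier Slco1a1 fell from 999.6 to 99.7 CPM (-3.32 ± 1.18; adjusted p = 0.0627 without WT day 5 replicate 2 and 0.0657 without replicate 3), while Abca1, the cholesterol exporter, rose (2.15 ± 0.30). Of glucose and amino acid transporters 16 of 38 fell and 9 rose (8 fell without WT day 5 replicate 3, and 10 each without replicate 1 or 2). The larger number turned with the scaling: 13 rose and 8 fell by total counts, and 13 rose and 8 fell on log2(FPKM + 1). Slc6a19, which takes up neutral amino acids, fell from 359 to 76.4 CPM (-2.23 ± 0.79; adjusted p = 0.0635 without WT day 5 replicate 2 and 0.0704 without replicate 3) and Slc5a8, a carrier of lactate and other monocarboxylates, from 693 to 167 CPM (-2.05 ± 0.58). The glucose transporters Slc2a6 (3.92 ± 0.77) and Slc2a3 (2.48 ± 0.59) and the amino acid transporter Slc7a12 (2.86 ± 0.97) rose from low levels. Lrp2, megalin, the endocytic receptor that recovers filtered protein, stood at 3374, 3059, 2893 and 3566 CPM at day 0 and 798, 709, 337 and 1088 CPM at day 5. It kept the same order among day 5 libraries as Slc34a1, lowest in replicate 3 and highest in replicate 4, and fell with its partner Cubn (-2.14 ± 0.53 and -1.83 ± 0.56), as did 9 of 14 endocytosis genes (5 without WT day 5 replicate 2 and 5 by total counts).

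Mitochondrial energy genes fell together and by similar amounts. All 36 of 36 nuclear genes of the respiratory chain on the list were lower, with a median of -1.03 and a range of -1.51 to -0.60, and all 20 of 20 of the citric acid cycle (median -1.09). Atp5b, the catalytic subunit of ATP synthase, stood at 4489.6, 4257, 4508 and 4673 CPM at day 0 and 1634, 1513, 759 and 2398 CPM at day 5. The groups did not overlap and replicate 4 was highest at day 5 (-1.51 ± 0.33, adjusted p = 8.02e-04). By total counts 23 of the 36 still fell, and none rose. Of the regulators of mitochondria 11 of 19 fell and 3 rose (7 fell and 6 rose by total counts, 4 fell and 6 rose on log2(FPKM + 1)). Perm1, a muscle and energy coactivator (-4.37 ± 0.41), the coactivator Ppargc1b (-1.47 ± 0.30) and the deacetylase Sirt3 (-1.42 ± 0.31) fell. The master coactivator Ppargc1a stood at 111, 128, 104 and 122 CPM at day 0 and 87.4, 70.5, 46.7 and 77.3 CPM at day 5. All 4 day 5 libraries lay below day 0, yet it did not pass (-0.72 ± 0.35, adjusted p = 0.0832; 0.00649 in a fit of the 8 libraries alone). Ucp2, an inner membrane carrier, rose from 254 to 384 CPM (0.60 ± 0.18).

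By TMM, more of the listed genes of carbohydrate, drug and sterol metabolism fell than rose. In glycolysis 8 of 18 genes fell and 3 rose, and the list median of -0.26 turned to 0.20 by total counts. There 7 rose and 4 fell, and on log2(FPKM + 1) 7 rose and 1 fell. Hk2, the inducible hexokinase, rose from 0.808 to 11.2 CPM (3.79 ± 0.65) and the leukocyte hexokinase Hk3 from 0.434 to 4.85 CPM (3.46 ± 0.89), while Pgam1 (-1.38 ± 0.32) and Pgk1 (-1.09 ± 0.21) fell. In gluconeogenesis, ammonia and arginine metabolism 8 of 24 fell and 2 rose (4 fell without WT day 5 replicate 3). These were 33.3% and 8.3%, against 25.6% and 31.0% of all genes. By total counts 4 fell and 3 rose, and on log2(FPKM + 1) 3 fell and 5 rose. Odc1, which makes putrescine from ornithine, fell from 1499 to 205 CPM (-2.87 ± 0.50) and Ass1, of arginine synthesis, from 1461 to 371 CPM (-1.98 ± 0.58), whereas arginase 2 (Arg2) rose from 9.23 to 58.3 CPM (2.66 ± 0.40). Of cytochrome P450 and conjugation genes 24 of 44 fell (14 each without WT day 5 replicate 2 or 3, and 15 without replicate 1) and 3 rose. Cyp4b1 fell from 5186 to 693 CPM (-2.90 ± 0.90) and the carboxylesterase Ces1g from 26.4 to 1.87 CPM (-3.80 ± 0.64), against a rise of Cyp1b1 from 18.4 to 145 CPM (2.97 ± 0.24). In cholesterol synthesis 16 of 20 fell and none rose (median -0.96), among them Idi1 (-3.12 ± 0.68) and Cyp51 (-2.41 ± 0.49).

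**Figure D2:**
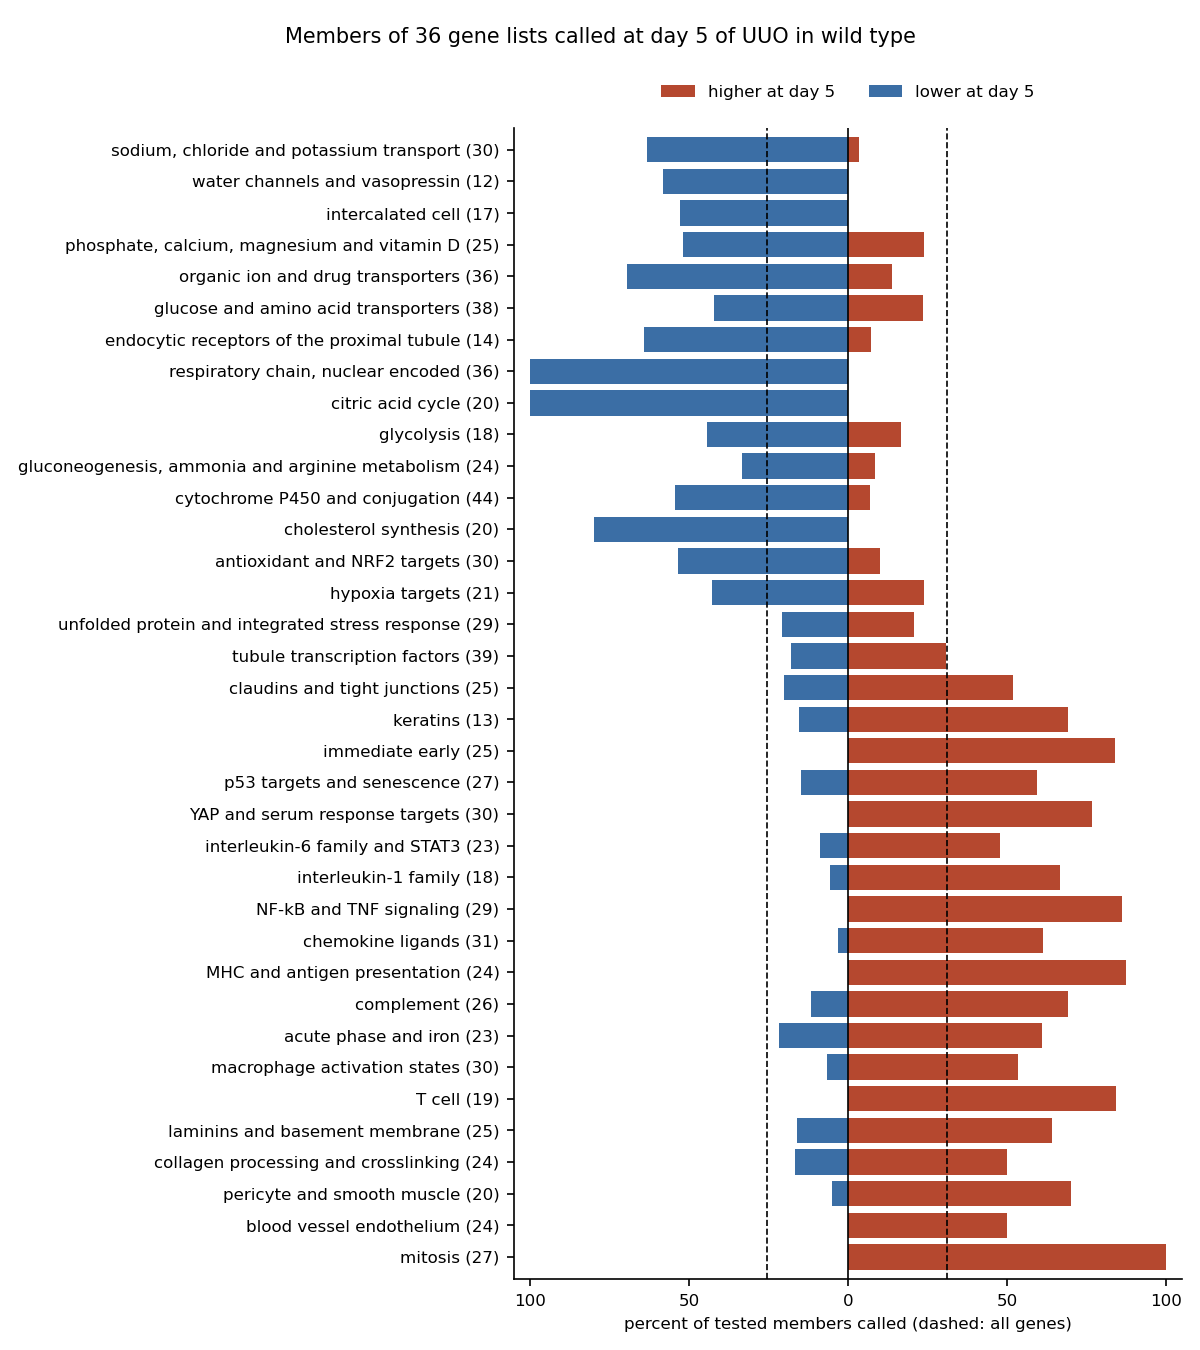
Share of tested members of 36 gene lists that were higher (right) or lower (left) at day 5 with an adjusted p under 0.05, in percent of the members tested, which are given after each name. Dashed lines mark the shares over all genes tested, 31.0% higher and 25.6% lower.

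Genes of tubular injury that are almost silent in the healthy kidney were high in every day 5 library. Havcr1, the shed receptor KIM-1, stood at 4.06, 6.80, 7.18 and 4.30 CPM at day 0 and 910.0, 476, 759 and 766 CPM at day 5. Krt20, a keratin of umbrella cells and injured tubules, stood at 0.173, 0.340, 0.179 and 0.0859 CPM at day 0 and 97.5, 48.3, 113 and 57.2 CPM at day 5. Lcn2, an iron-carrying lipocalin, stood at 2.51, 5.70, 10.05 and 5.33 CPM at day 0 and 249, 404, 409 and 275 CPM at day 5. All 3 had day 5 libraries many times above the highest day 0 library, with changes of 7.02 ± 0.32, 8.60 ± 0.47 and 5.82 ± 0.71. Of the keratins 9 of 13 rose and 2 fell. Krt19 of simple epithelia rose from 4.94 to 50.1 CPM (3.34 ± 0.56), while Krt10 (-1.17 ± 0.21) and Krt80 (-1.33 ± 0.32) fell. The pooled ratio of Krt17, with 1 count over the day 0 group, was 56.4 (95% counting interval 9.86 to 2255). Of urothelial markers 5 of 12 rose, and these were keratins and cornified envelope genes (Krt20, Krt5, Sprr1a and Sprr2f) and Trp63. Krt5 and Trp63 stood close to the threshold (adjusted p = 0.0486 and adjusted p = 0.0497), and 3 genes rose without WT day 0 replicate 1, 2 or 4 or WT day 5 replicate 4, in each case. None of the uroplakins, the defining proteins of bladder and ureter lining, was among them: Upk1b went from 7.02 to 10.9 CPM (0.64 ± 0.92) and Upk1a from 8.38 to 7.44 CPM (-0.17 ± 0.78). The summed urothelial list was between 12.2 and 98.9 CPM at day 0 and between 167 and 299 CPM at day 5.

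Single transcription factors of the tubule changed in both directions, while their list did not stand out. Of it 12 of 39 rose and 7 fell (30.8% and 17.9%, against 31.0% and 25.6% of all genes), and the list median of -0.06 turned to 0.42 by total counts. Sox9, a progenitor and repair factor, stood at 1.30, 1.11, 0.538 and 1.20 CPM at day 0 and 29.6, 25.1, 38.2 and 33.3 CPM at day 5. Runx1 (3.83 ± 0.41) and the neural and nephron progenitor factor Sox11 (3.77 ± 0.57) rose with it. Hnf4a, the factor that holds proximal tubule identity, stood at 1107, 1003, 949 and 1151 CPM at day 0 and 441, 384, 256 and 804 CPM at day 5. It changed by -1.16 ± 0.38 (adjusted p = 0.0129; 0.0587 without WT day 5 replicate 3 and 0.0666 by total counts), with no overlap of the groups, and its day 5 libraries ran from replicate 3 (lowest) to replicate 4 (highest). Irx1, of the intermediate nephron, fell (-1.42 ± 0.34), while Maf went from 196 to 203 CPM and did not pass (0.05 ± 0.16).

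Immediate early genes, which respond within minutes to many stimuli, were higher at day 5. Of the list 21 of 25 rose and none fell, with a median of 2.37. Egr2 (5.81 ± 0.60) and Atf3, a stress factor (4.24 ± 0.42), rose, and Fosl1, with 2 counts over the day 0 group, was higher at a pooled ratio of 73.2 (95% counting interval 20.02 to 608). Of p53 targets and senescence genes 16 of 27 rose and 4 fell. The cell cycle inhibitor Cdkn1a (p21) stood at 6.23, 7.99, 11.8 and 8.94 CPM at day 0 and 40.9, 50.9, 57.5 and 42.4 CPM at day 5. All day 5 libraries were higher, at 2.46 ± 0.32 (adjusted p = 2.83e-06). The stress cytokine Gdf15 rose (2.61 ± 0.41), and Ccng1, cyclin G1, fell (-1.32 ± 0.25). Of targets of YAP and serum response factor, which read cell stretch and actin assembly, 23 of 30 rose and none fell, among them Ankrd1 (3.80 ± 0.43), Cyr61 (2.80 ± 0.39) and Tmsb10 (3.77 ± 0.35). Ctgf, a matricellular protein, rose from 61.5 to 387 CPM (2.65 ± 0.36), while Yap1 itself went from 118 to 133 CPM (0.17 ± 0.11, not called).

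By TMM, the unfolded protein, heat shock and hypoxia lists did not move as a block, while more antioxidant genes fell than rose. Of unfolded protein and integrated stress genes 6 of 29 rose and 6 fell (20.7% each, against 31.0% and 25.6% of all genes). The list median of -0.18 became 0.29 by total counts. There 11 rose and 2 fell, and on log2(FPKM + 1) 15 rose and 2 fell. Trib3 (2.22 ± 0.32) and asparagine synthetase Asns (1.41 ± 0.23) rose and Shmt2, of mitochondrial serine metabolism, fell (-1.69 ± 0.29). Of heat shock proteins 2 of 15 rose and 5 fell, or 13.3% and 33.3%. By total counts 6 rose and 3 fell, and on log2(FPKM + 1) 7 rose and 2 fell. The small ones rose, Hspb1 from 4.86 to 89.8 CPM (4.21 ± 0.26) and Hspb8 from 4.54 to 33.1 CPM (2.86 ± 0.20), while the mitochondrial chaperones Hspd1 (-1.57 ± 0.29) and Hspe1 (-1.07 ± 0.21) fell. Of hypoxia targets 5 of 21 were higher and 9 lower, or 23.8% and 42.9% (9 higher and 2 lower by total counts). Lox, which crosslinks collagen, rose (4.38 ± 0.57), and Car9, carbonic anhydrase 9, fell (-1.68 ± 0.39). Of antioxidant genes 16 of 30 fell and 3 rose, or 53.3% and 10%, against 25.6% and 31.0% of all genes. By total counts 8 fell and 9 rose, and on log2(FPKM + 1) 4 fell and 10 rose. The list median minus that of all genes was -0.77 by TMM and -0.78 by total counts. Superoxide dismutase Sod2 (-1.36 ± 0.23) and catalase Cat (-1.35 ± 0.41) were lower and Gpx7 higher (2.60 ± 0.36).

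**Figure D3:**
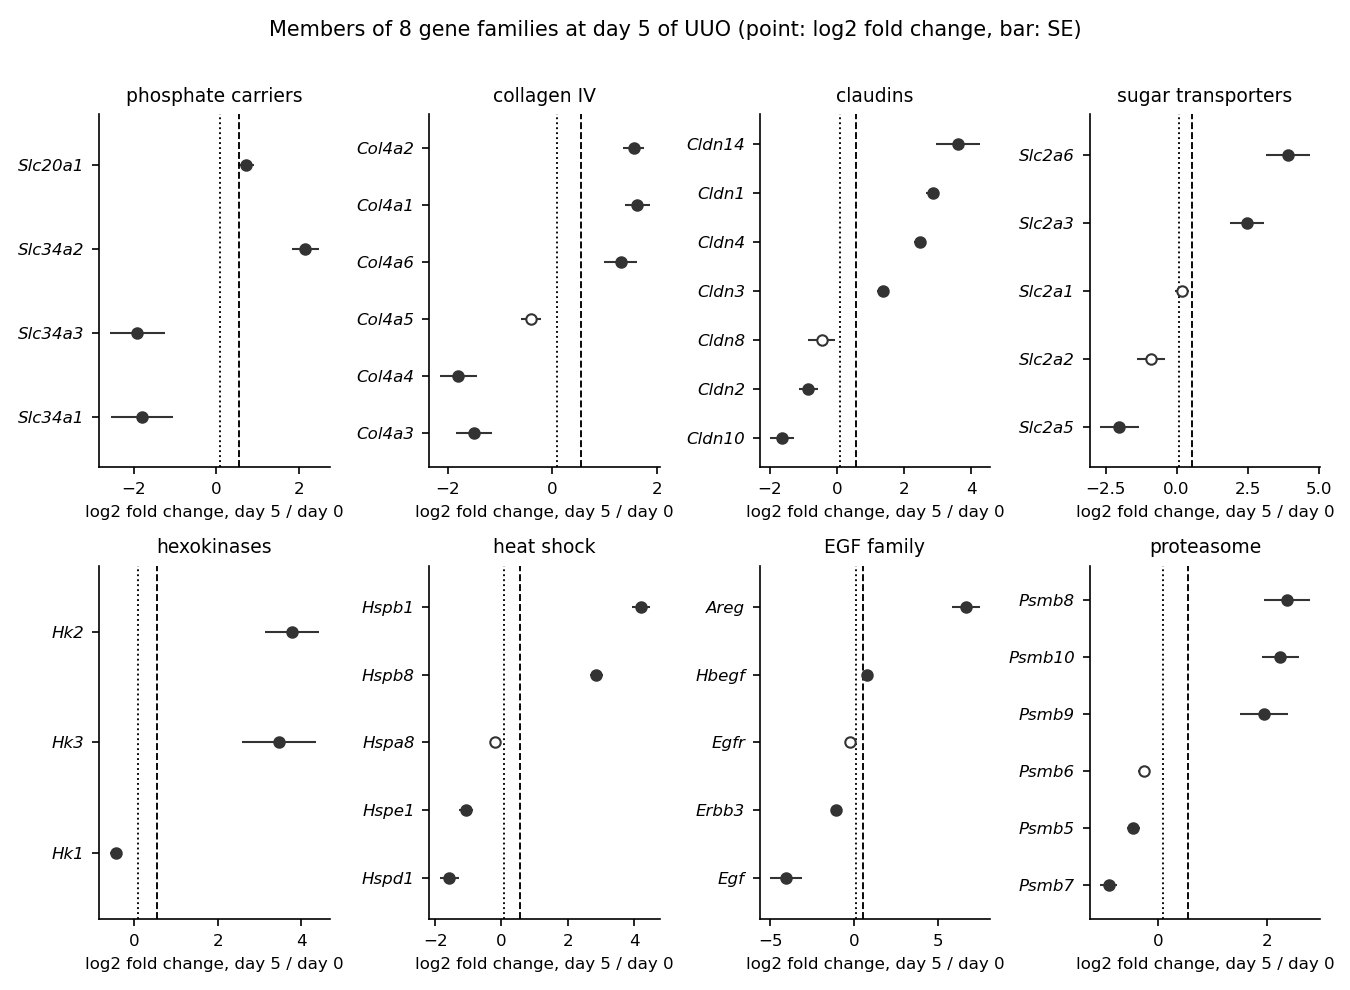
Log2 fold change of day 5 over day 0 with its SE for members of 8 gene families. Filled points passed an adjusted p of 0.05 and open points did not. The dotted line is the median of all genes (0.08) and the dashed line the median by total-count scaling (0.55). Every family drawn has members on both sides of both lines.

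Ligands and receptors of epithelial and inflammatory signalling differed in direction within families. In the EGF family 4 of 15 genes rose and 3 fell, both shares below those of all genes. Egf and Areg moved in opposite directions: Areg, amphiregulin, with 1 count over the day 0 group and 204 over day 5, was higher at a pooled ratio of 134 (95% counting interval 23.8 to 5314). The receptor Egfr went from 83.5 to 68.8 CPM and was not called (-0.28 ± 0.20; adjusted p = 0.0123 without WT day 5 replicate 4), and Erbb3 fell (-1.10 ± 0.29). In the interleukin-6 family 11 of 23 genes rose and 2 fell. Lif, a ligand of that family, stood at 0.259, 0.595, 0.449 and 0.258 CPM at day 0 and 18.4, 21.2, 14.8 and 14.1 CPM at day 5. The feedback inhibitor Socs3 rose from 1.46 to 59.3 CPM (5.34 ± 0.54) and the oncostatin M receptor Osmr from 6.56 to 91.5 CPM (3.80 ± 0.30), beside Lif at 5.43 ± 0.46. The shared receptor chain Il6st went from 212 to 241 CPM and was not called. In the interleukin-1 family 12 of 18 rose and 1 fell. Il1f6, interleukin-36 alpha, had 1 count at day 0 and 635 at day 5, a pooled ratio of 417 (95% counting interval 74.5 to 16487), and the receptor antagonist Il1rn rose from 0.173 to 15.1 CPM (6.38 ± 1.17). Il1b itself, the classic inflammasome product, went from 0.719 to 2.08 CPM and did not pass (1.53 ± 1.40, adjusted p = 0.356; 0.00387 in a fit of the 8 libraries alone).

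The NF-kB pathway and the chemokines rose broadly. Of NF-kB and TNF signalling genes 25 of 29 rose and none fell, with a median of 2.27. Vcam1, which lets leukocytes adhere, rose by 5.45 ± 0.28, the inhibitor Nfkbiz by 3.14 ± 0.50 and the inhibitor Nfkbia by 2.16 ± 0.37. Of chemokine ligands 19 of 31 rose and 1 fell. Ccl2, which attracts monocytes, stood at 0.259, 0.595, 0.179 and 0.430 CPM at day 0 and 22.5, 10.9, 27.3 and 10.9 CPM at day 5. Cxcl1, which attracts neutrophils, rose from 0.562 to 43.9 CPM (6.26 ± 0.67), and its neighbour Cxcl2, with 3 counts over the day 0 group, was higher at a pooled ratio of 96.04 (95% counting interval 32.6 to 468). Cxcl5 and Ccl7 had no count in any day 0 library, and over day 5 they had 283 and 245, at least 61.9-fold and 53.6-fold higher when day 0 is set at 3 counts in all 4 libraries together. The 1 ligand that fell was Ccl25, made by thymus and gut (-0.59 ± 0.20). It was not called by total counts (adjusted p = 0.686), nor without WT day 5 replicate 1, 2 or 4 (adjusted p = 0.0534, 0.0529 and 0.0907) and its sign turned on log2(FPKM + 1), to 0.05. Of chemokine receptors 10 of 17 rose and none fell, among them Ccr1 (4.27 ± 0.92) and Ccr2 (3.69 ± 0.26).

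The letters upstream of such genes can be read in RefSeq promoters of the GRCm38.p6 build, from 250 bases before to 50 after each annotated start, which were found for 11253 of the genes tested (14322 promoters). Of 8 motifs searched, the NF-kB motif GGANTTTCC was in 3.28% of promoters of called genes at least 4-fold higher (1280 promoters), 1.86% of those at least 4-fold lower (215 promoters) and 1.40% of all. In the same order, the AP-1 motif TGANTCA was in 9.22%, 7.44% and 5.67% and the interferon response element GAAACNGAA in 2.58%, 1.40% and 1.80%. For factors of the tubule, HNF1 (GTTAATNAT) was in 0.625%, 1.40% and 0.552% and HNF4 (CAAAGTCCA) in 0.938%, 0.930% and 0.468%. The YAP partner TEAD (ACATTCCA) was in 0.938%, 1.86% and 0.859%, serum response factor (SRF, CCATATTAG) in 0%, 0.465% and 0.0770% and E2F of the cell cycle (TTTCGCGC) in 0.469%, 0.465% and 0.587%. The shares of the lower set rest on 1 to 16 promoters each. Both strands were searched, matches of different motifs overlapped in 0 promoters, and a match is a description of letters, not a binding site. The stretches around a match, in lower case with the match in capitals, belong to genes that rose and are described beside them. That of Havcr1 followed from the naming rule, and the others were chosen after their values were seen. The match of Havcr1 lies 10 bases after 1 of its 3 annotated starts, and the others lie before a start. Il1rn has 3 and Gbp3 has 2 listed promoters, and the match is in 1 of them in each.
Havcr1, AP-1 (chr11:46751168-46751194, plus strand): gtcagtaccaTGAATCAgattcaagtc
Il1rn, AP-1 (chr2:24336694-24336750, plus strand): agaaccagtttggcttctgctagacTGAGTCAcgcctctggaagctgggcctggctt
Lif, AP-1 (chr11:4257318-4257371, plus strand): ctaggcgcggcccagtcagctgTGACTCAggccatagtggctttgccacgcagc
Trem2, AP-1 (chr17:48346367-48346400, plus strand): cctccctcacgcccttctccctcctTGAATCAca
Cxcl1, NF-kB (chr5:90891150-90891208, plus strand): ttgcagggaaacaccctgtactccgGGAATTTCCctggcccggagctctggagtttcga
Cxcl2, NF-kB (chr5:90903778-90903836, plus strand): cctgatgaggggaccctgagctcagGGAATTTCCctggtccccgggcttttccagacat
Nfkbia, NF-kB (chr12:55492648-55492850, minus strand): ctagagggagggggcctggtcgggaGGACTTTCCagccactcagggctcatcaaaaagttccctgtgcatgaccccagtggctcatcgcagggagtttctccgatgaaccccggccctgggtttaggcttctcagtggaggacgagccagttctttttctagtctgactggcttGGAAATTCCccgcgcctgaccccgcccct
B2m, interferon response element and then NF-kB (chr2:122147523-122147594, plus strand): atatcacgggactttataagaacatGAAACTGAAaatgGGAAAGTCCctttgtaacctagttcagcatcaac
Gbp3, interferon response element (chr3:142559975-142560033, plus strand): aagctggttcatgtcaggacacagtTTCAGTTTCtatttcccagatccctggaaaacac
The neighbouring chemokine genes Cxcl1 and Cxcl2 hold the same letters at the match, and Nfkbia, whose product holds NF-kB in the cytoplasm, holds 2 matches. B2m, the light chain of MHC class I, holds both kinds of match side by side and rose from 277 to 908 CPM (1.71 ± 0.31).

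Antigen presentation and interferon genes rose. Of MHC and antigen presentation genes 21 of 24 rose and none fell, with a median of 2.05. Cd74, the invariant chain of MHC class II, stood at 120.1, 195, 189 and 311 CPM at day 0 and 1369, 1303, 1260.2 and 1580.0 CPM at day 5. The class II chains H2-Aa (3.08 ± 0.32) and H2-Eb1 (3.04 ± 0.33) and the protease Ctss (3.88 ± 0.43) rose with it. By TMM the proteasome showed a division by subunit: the 3 immune subunits Psmb8 (2.36 ± 0.42), Psmb9 (1.93 ± 0.44) and Psmb10 (2.24 ± 0.34) rose, while 18 of the other 34 fell and none rose. Those falls were small and rested on the scaling. By total counts 15 of the whole list rose, 1 fell and the list median of -0.26 turned to 0.19. On log2(FPKM + 1) 24 rose and 0 fell. Of interferon-inducible GTPases 9 of 16 rose, among them Mx1 (3.42 ± 0.66), Gbp2 (2.53 ± 0.69) and Gbp3 (2.42 ± 0.49).

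Markers of several leukocytes were higher, at quite different levels. A short macrophage list (Emr1, which encodes F4/80, Cd68, Csf1r and C1qa) summed to between 121 and 177 CPM at day 0 and between 342 and 413 CPM at day 5. Csf1r, which was not called, gave most of the sum at day 0, and 3 of the 4 genes rose. Cx3cr1, the fractalkine receptor of resident macrophages and monocytes, stood at 4.32, 4.68, 5.65 and 4.13 CPM at day 0 and 38.99, 38.5, 37.04 and 49.6 CPM at day 5. All day 5 libraries were higher (3.13 ± 0.20). Of macrophage activation genes 16 of 30 rose and 2 fell. Trem2, a lipid-sensing receptor, stood at 0, 0.340, 0.179 and 0 CPM at day 0 and 10.4, 10.3, 12.2 and 7.50 CPM at day 5. The mannose receptor Mrc1 rose from 3.20 to 70.3 CPM (4.46 ± 0.34). The 2 that fell, Lpl (-3.05 ± 0.42) and Cd36 (-2.45 ± 0.64), handle fatty acids and were at 3364 and 1424 CPM in the day 0 kidney. Of Fc receptors and the phagocyte oxidase 15 of 18 rose and 1 fell, with Itgam (4.47 ± 0.70) and Fcgr1 (3.98 ± 0.43) higher. T cell genes rose in 16 of 19 cases and summed to between 9.25 and 14.6 CPM at day 0 and between 65.8 and 121 CPM at day 5. Cd4 (3.54 ± 0.58) and Thy1 (4.50 ± 0.44) rose, the latter also a marker of fibroblasts and nerves. NK and cytotoxic genes rose in 10 of 14 and B and plasma cell genes in 5 of 11 cases, none falling. The NK list summed to only 2.08 to 4.81 CPM at day 0, so a fall could hardly be seen. In a fit of the 8 libraries alone 5 of 5 tested NK genes rose, and of 5 B and plasma cell genes 3 rose and 1 fell. Of neutrophil genes 3 of 9 tested rose (Lcn2, Prtn3 and Csf3r), or 33.3%, against 31.0% of all genes. More stood apart than were called: in 8 of the 9 all day 5 libraries lay above all of day 0 (28.2% over all genes). The list median was 3.25, and by DESeq2 10 of 14 rose. Genes low at day 0 pass the filter through groups where they are high, which favours such an order. S100a8 went from 0.326 to 2.16 CPM and S100a9 from 0.526 to 4.04 CPM and neither was called (adjusted p = 0.00237 and 8.58e-04 in a fit of the 8 libraries alone, where 6 of the list rose). The granule genes Mpo, Elane, Camp and Ngp had no count at day 0 and were too low to be tested, and Lcn2 alone gave most of the summed list (267 to 432 CPM at day 5).

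Complement and acute phase genes, best known from the liver, rose in the kidney. Of complement genes 18 of 26 rose and 3 fell. C3, the central component, stood at 10.5, 15.6, 19.8 and 16.8 CPM at day 0 and 1339, 1550.4, 1774 and 2479 CPM at day 5. Replicate 4 was highest at day 5 and the days lay far apart (6.83 ± 0.52, adjusted p = 3.18e-09). The protease Cfi (3.97 ± 0.27) and the receptor C5ar1 (4.23 ± 0.72) rose, whereas Cd55, which protects cells from complement, fell from 42.97 to 11.7 CPM (-1.88 ± 0.25). Of acute phase and iron genes 14 of 23 rose and 5 fell. The fibrinogen chain Fgb rose from 0.480 to 18.2 CPM (5.23 ± 0.78), and ceruloplasmin Cp, a copper-carrying ferroxidase, from 41.7 to 605 CPM (3.86 ± 0.32). The transferrin receptor Tfrc (-1.73 ± 0.30) and the iron importer Slc11a2 (-1.14 ± 0.23) fell. Serpina10, an inhibitor of coagulation factors, stood at 1.56, 2.64, 2.51 and 2.23 CPM at day 0 and 104, 74.8, 114 and 112 CPM at day 5. All day 5 libraries were many times above day 0 (5.50 ± 0.41).

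Cell death genes rose in part. Of those of apoptosis, necroptosis and pyroptosis 23 of 39 rose and 5 fell. Casp4 (4.01 ± 0.50), Casp12 (3.40 ± 0.28) and Bcl2a1b (3.24 ± 0.67, 1 of several near-identical copies whose reads may be split) rose. Mlkl and Gsdmd, the pore formers of necroptosis and pyroptosis, rose by 2.81 ± 0.33 and 3.01 ± 0.35. Nlrc4, an inflammasome sensor, fell (-1.34 ± 0.33).

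Matrix genes rose, and within the basement membrane the chains differed in direction. Col1a1, the main fibrillar collagen, stood at 25.5, 34.1, 48.9 and 43.5 CPM at day 0 and 318, 456, 435 and 728 CPM at day 5. Replicate 4 was highest and no library overlapped, at 3.67 ± 0.46 (adjusted p = 2.30e-06). Of collagen processing genes 12 of 24 rose and 4 fell. Lox (4.38 ± 0.57) and the procollagen protease Adamts2 (3.47 ± 0.23) rose, while P4hb, a prolyl hydroxylase subunit and general protein disulphide isomerase, fell (-0.95 ± 0.20). Of laminins and basement membrane genes 16 of 25 rose and 4 fell. Col4a3, of the collagen IV network of the glomerulus and some tubules, stood at 523, 525, 503 and 537 CPM at day 0 and 220.4, 184, 139 and 200.4 CPM at day 5. All 4 day 5 libraries were lower (-1.49 ± 0.34, adjusted p = 0.00112), and Col4a4 fell with it (-1.80 ± 0.35). Col4a1, of the network found in most basement membranes, stood at 311, 337, 375 and 411 CPM at day 0 and 1031, 1114, 795 and 1453 CPM at day 5. It rose in every day 5 library (1.62 ± 0.24).

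Fibroblast and pericyte genes rose, and smooth muscle genes did so unevenly. Of the list 14 of 20 rose and 1 fell, and its sum was between 1116 and 1194 CPM at day 0 and between 1596 and 1944 CPM at day 5. Postn, periostin, rose from 3.83 to 29.5 CPM (2.95 ± 0.51) and the growth factor receptor Pdgfra from 17.4 to 99.1 CPM (2.51 ± 0.27). Acta2, the smooth muscle actin of myofibroblasts, stood at 51.5, 76.9, 97.2 and 47.4 CPM at day 0 and 113, 181, 102 and 194 CPM at day 5. Its change was 1.11 ± 0.37 (adjusted p = 0.0141), while the myosin Myh11, a marker of mature smooth muscle, fell from 58.2 to 23.9 CPM (-1.28 ± 0.30). Of adhesion and mesenchymal genes 14 of 23 rose and 1 fell. Cd44, the hyaluronan receptor, stood at 1.56, 2.21, 3.50 and 2.41 CPM at day 0 and 145, 83.95, 131 and 82.5 CPM at day 5. Cdh16, the kidney-specific cadherin, fell from 1867 to 880.4 CPM (-1.08 ± 0.32; adjusted p = 0.0592 by total counts), while Cdh1, E-cadherin, went from 315 to 289 CPM and was not called (-0.13 ± 0.17; 0.51 on log2(FPKM + 1)).

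Among secreted signals, members of the TGF-beta, Wnt and vasoactive systems changed. Tgfb1, the best known fibrosis signal, stood at 9.69, 11.99, 11.5 and 11.1 CPM at day 0 and 44.2, 43.8, 48.03 and 50.1 CPM at day 5. The spread was small on both days and the change 2.07 ± 0.21 (adjusted p = 1.38e-07). Of BMP, activin and TGF-beta genes 25 of 46 rose and 3 fell. Ltbp2, of the protein family that stores TGF-beta, rose from 0.520 to 19.6 CPM (5.21 ± 0.51). Bmp7 (-1.22 ± 0.25), a protective factor of the tubule, and the BMP antagonist Chrdl1 (-2.89 ± 0.61) fell. Of Wnt genes 14 of 42 rose and 3 fell (33.3% higher, near the 31.0% of all genes), with Nkd2 (3.68 ± 0.54) and Wnt7a (4.01 ± 0.81) higher. Of Notch and Hedgehog genes 10 of 24 rose and 3 fell (41.7% and 12.5%, against 31.0% and 25.6% of all genes). Gli1, a transcription factor of the Hedgehog pathway, rose (2.43 ± 0.43). Of vasoactive genes 13 of 33 rose and 5 fell (39.4% and 15.2%, against the same shares of all genes). Endothelin 1 (Edn1) rose from 2.08 to 38.1 CPM (4.19 ± 0.40) and the angiotensin receptor Agtr2 from 0.0860 to 2.18 CPM (4.54 ± 1.23). Klk1, the kallikrein of the distal nephron, stood at 2463, 2102, 2776 and 2302 CPM at day 0 and 253, 367, 95.4 and 147 CPM at day 5. Replicate 3 was lowest, and the change was -3.48 ± 0.78 (adjusted p = 9.18e-04). The angiotensin-converting enzyme Ace fell too (-2.07 ± 0.58).

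Tight junction genes differed in direction too. Of claudins and other junction genes 13 of 25 rose and 5 fell. Cldn1, a sealing claudin, rose from 19.2 to 138 CPM (2.84 ± 0.19) and Cldn4 from 24.2 to 135 CPM (2.47 ± 0.18). Cldn10, which forms ion pores, fell from 357 to 115 CPM (-1.64 ± 0.36), and Cldn8 of the collecting duct went from 125 to 90.8 CPM (-0.46 ± 0.39, not called).

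Growth factors, their receptors and the surface proteins they meet were followed by family. Of FGF, PDGF, HGF and IGF genes 10 of 30 rose and 9 fell (33.3% and 30.0%, near the 31.0% and 25.6% of all genes). Fgf1, abundant in the healthy kidney, fell from 478 to 178 CPM (-1.43 ± 0.39) and the binding protein Igfbp5 from 562 to 198 CPM (-1.50 ± 0.27), while the fibroblast-derived epithelial growth factor Fgf7 rose from a low level (2.86 ± 0.99). Of colony-stimulating factors and receptors 9 of 17 rose and 1 fell. Csf1, the macrophage growth factor, stood at 7.96, 12.6, 10.3 and 11.4 CPM at day 0 and 67.1, 56.99, 68.8 and 54.9 CPM at day 5, and no library of the days overlapped (2.55 ± 0.34). Its receptor Csf1r went from 119.6 to 157 CPM and was not called (0.40 ± 0.23; adjusted p = 0.0225 in a fit of the 8 libraries alone). Of integrins 18 of 27 rose and none fell, among them the collagen receptor Itga11 (3.01 ± 0.48) and Itgax of dendritic cells (2.98 ± 0.29). Itgb6, the epithelial chain that activates TGF-beta, went from 161 to 163 CPM and was not called (0.02 ± 0.23).

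Calcium-binding and lysosomal proteins changed in both directions. Of S100 proteins, annexins and galectins 17 of 26 rose and 2 fell. S100a6 rose from 16.8 to 151 CPM (3.17 ± 0.45), Anxa3 from 13.4 to 109.7 CPM (3.04 ± 0.23) and Anxa1, an annexin that limits inflammation, from 10.3 to 61.8 CPM (2.59 ± 0.38). The epithelial annexin Anxa13 fell (-1.89 ± 0.33). Of lysosomal genes 7 of 32 rose and 13 fell, or 21.9% and 40.6% (31.0% and 25.6% of all genes). By total counts 13 rose and 6 fell, and on log2(FPKM + 1) 15 rose and 2 fell. The proteases Ctss (3.88 ± 0.43) and Ctsk (3.09 ± 0.27) rose, the hydrolases Neu1 (-1.35 ± 0.26) and Glb1 (-1.29 ± 0.27) fell, and the abundant Ctsb went from 994 to 1087 CPM and was not called. Of glucocorticoid responsive genes 7 of 14 rose and 1 fell. Fkbp5, a standard readout of glucocorticoids, went from 185 to 252 CPM and was not called (0.44 ± 0.35), while the metallothionein Mt2 rose (1.67 ± 0.41) and Hsd11b1, which regenerates cortisol and corticosterone, fell from 343 to 94.9 CPM (-1.85 ± 0.37).

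Markers of other kidney cells changed in some members of each list. Of endothelial genes 12 of 24 rose and none fell, with a list median of 0.64 and a sum of between 633 and 854 CPM at day 0 and between 1052 and 1399 CPM at day 5. Among them Aplnr (1.96 ± 0.37) and Gpihbp1 (1.79 ± 0.15) rose, while Kdr, the VEGF receptor, went from 41.9 to 34.6 CPM (-0.27 ± 0.34, not called; adjusted p = 0.0258 without WT day 5 replicate 4). Of podocyte genes 9 of 16 rose and none fell. The rise of Tcf21 (3.38 ± 0.35) was in a gene that interstitial fibroblasts also express, and Podxl went from 179 to 182 CPM (0.02 ± 0.23, not called). Of lymphatic genes 5 of 9 rose and 2 fell. Pdpn (1.98 ± 0.40) and Lyve1 (2.05 ± 0.51), which macrophages or other cells also express, rose, while Prox1, the defining lymphatic factor, which loops of Henle also express, fell from 7.85 to 1.21 CPM (-2.66 ± 0.35). Of Schwann cell and nerve genes 4 of 6 rose, among them Ncam1 (2.48 ± 0.38). Lists for tissues that lie beside the kidney or in its blood were also summed. The adrenal list summed to between 0.945 and 1.97 CPM at day 0 and between 1.59 and 4.08 CPM at day 5, skeletal muscle to between 0.773 and 1.96 CPM at day 0 and between 2.02 and 2.48 CPM at day 5 and fat cells to between 34.8 and 99.8 CPM at day 0 and between 83.3 and 118 CPM at day 5, of which the lipid carrier Fabp4, also an endothelial gene, gave most (98.1 CPM at day 5). The erythroid list summed to between 53.8 and 86.4 CPM at day 0 and between 4.01 and 13.002 CPM at day 5, with the globin genes Hba-a1, Hba-a2, Hbb-b1 and Hbb-b2 listed at 0 in all 24 libraries and Slc4a1, also an intercalated cell gene, at a mean of 68.6 and 6.76 CPM. The part of these cells in the other results was not tested.

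Mitosis genes rose in every member listed and DNA replication genes in most. All 27 of 27 mitosis genes were higher, with a median of 2.08. Mki67, a marker of cycling cells, stood at 10.9, 6.72, 15.5 and 7.39 CPM at day 0 and 59.1, 60.2, 70.6 and 33.6 CPM at day 5. Replicate 4 was lowest at day 5 and still above all of day 0 (2.46 ± 0.35, adjusted p = 1.00e-05). Of DNA replication genes 20 of 30 rose and 2 fell, with Uhrf1 (2.74 ± 0.23) and Mcm3 (2.37 ± 0.24) higher.

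Some abundant genes hardly moved. Anapc5, a subunit of the anaphase-promoting complex (0.00 ± 0.10), Ythdf3, a reader of methylated RNA (-0.03 ± 0.09), and Ubb, a polyubiquitin gene (0.00 ± 0.11), were among those picked for the smallest change and SE. By total counts they were at 0.47, 0.44 and 0.48, close to the median gene on that scale, and all 3 were called. By limma on log2(FPKM + 1), which changes the scale, the filter and the test together, the calls of Cat, Ccl25, Cdh16, Csf3r, Cxcl5, Fgf1, Hk3, Hnf4a, Kap, Krt17, Myh11, Nlrc4, P4hb, Pgam1, Slc12a1 and Slc34a1 ended. Of cytosolic ribosomal proteins 19 of 76 rose and 2 fell (median 0.27, a smaller share higher than the 31.0% of all genes; 36 rose without WT day 5 replicate 4, 12 without replicate 3 and 63 by total counts). Of circadian genes 4 of 21 rose and 2 fell, shares under those of all genes (19.0% and 9.5%), with the clock repressor Cry1 higher (1.52 ± 0.38), and the hour of collection is not given by the labels. Of phospholipase D genes Pld4, labelled as intact in these mice, stood at 5.10, 5.53, 7.89 and 8.25 CPM at day 0 and 50.9, 47.6, 48.2 and 46.6 CPM at day 5. All day 5 libraries were higher (2.85 ± 0.29). Pld2 rose (1.74 ± 0.18), Pld6 fell (-1.70 ± 0.46) and Pld3, the nearest relative of Pld4, went from 92.7 to 99.3 CPM and was not called.

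**Figure D4:**
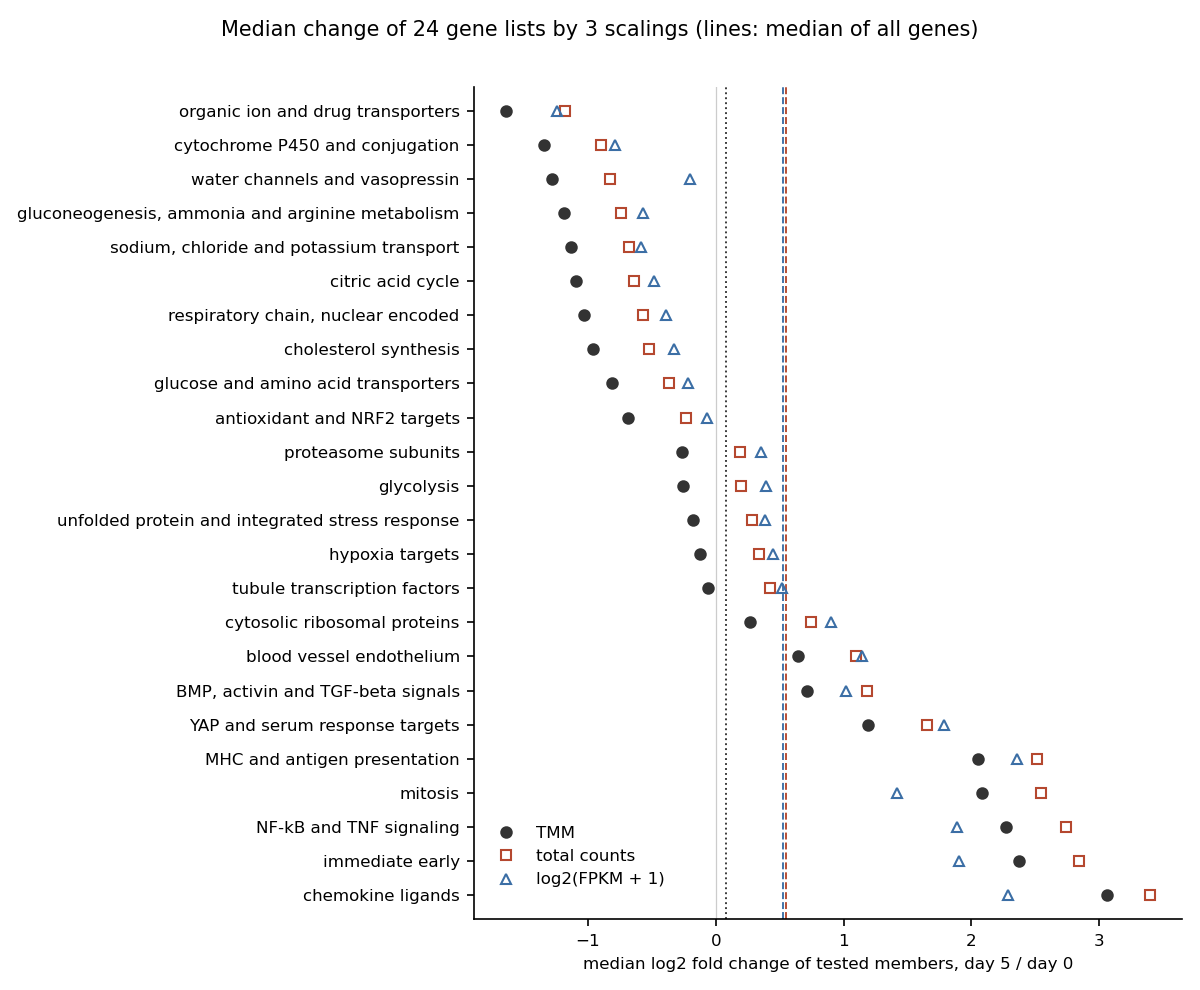
Median log2 fold change of 24 gene lists at day 5 by 3 scalings: TMM, total counts, and log2(FPKM + 1). Vertical lines are the medians of all genes by the same scalings (0.08, 0.55 and 0.53), so a point is read by its distance from the line of its own colour.

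The last comparison asks where the day 5 response of libraries labelled PLD4+/+ differed from that of libraries labelled PLD4-/-, by the difference between the 2 responses in the same fit. In the fit of all 24 libraries 0.564% of genes passed (85), 80 (0.531%) with a larger and 5 (0.0332%) with a smaller value in those labelled PLD4+/+. The count was 510 in a fit of these 16 libraries alone, 645 without WT day 10 replicates 2 and 3, and 263 by DESeq2. The labels also lay apart at day 0 on the first principal component of all 24 libraries. Those labelled PLD4+/+ were between -122 and -102 and those labelled PLD4-/- between -92.0 and -70.9. The day 5 libraries of these labels lay between 3.75 and 49.7. The cause of this offset was not tested. Pld4 itself did not follow its labels at day 0: libraries labelled PLD4-/- stood at 12.6, 9.91, 8.68 and 6.70 CPM, 3 of them above all 4 labelled PLD4+/+ (5.10, 5.53, 7.89 and 8.25 CPM). At day 5 they stood at 32.6, 18.9, 13.4 and 16.4 CPM, all below those labelled PLD4+/+ (50.9, 47.6, 48.2 and 46.6 CPM). What the deletion removes from the transcript is not given in the sources used here, so a gene count is no full check of it, and each direction below rests on the labels as given. Its response was 2.85 ± 0.29 in those labelled PLD4+/+ and 1.10 ± 0.28 in those labelled PLD4-/- (difference 1.75 ± 0.39, adjusted p = 0.0439). Ccl2 changed by 5.57 ± 0.49 and 2.06 ± 0.37 in the same order (difference 3.51 ± 0.63, adjusted p = 0.0117), and its day 5 levels overlapped, at 22.5, 10.9, 27.3 and 10.9 CPM in libraries labelled PLD4+/+ and 14.9, 12.1, 10.98 and 12.5 CPM in those labelled PLD4-/-. They lay apart at day 0, where Ccl2 stood at 0.259, 0.595, 0.179 and 0.430 CPM and 4.21, 2.27, 2.13 and 3.43 CPM in the same order. Siglec1, a macrophage lectin (difference 3.24 ± 0.62), the interferon-induced Mx1 (4.26 ± 0.86) and the lectin Clec4a3 (3.06 ± 0.50) likewise stood higher at day 0 in all 4 libraries labelled PLD4-/-. For Siglec1 these levels were 0.519, 0.680, 0.628 and 0.344 CPM labelled PLD4+/+ and 6.01, 2.86, 4.11 and 3.51 CPM labelled PLD4-/-. The same order at day 0 was met by 7 of the 8 genes with the largest difference, and by 76 of the 80 with a larger response in libraries labelled PLD4+/+. At day 5 the libraries with the 2 labels overlapped in 64 of those 80, and in 13 all labelled PLD4-/- lay below all labelled PLD4+/+. The gaps between the labels at days 0 and 5 make up the tested difference, so these orders follow in part from how the genes were picked. Their shares over all genes were not counted, and no conclusion is drawn from them. Zbtb16, a transcription factor that responds to glucocorticoids, was the exception among the 8 at day 0. It stood at 13.2, 25.3, 20.01 and 27.9 CPM at day 0 and 54.5, 42.7, 38.2 and 61.2 CPM at day 5 in libraries labelled PLD4+/+ and at 22.2, 50.97, 50.6 and 25.5 CPM at day 0 and 2.91, 3.81, 2.78 and 9.28 CPM at day 5 in those labelled PLD4-/-, with a difference of 4.17 ± 0.73 (adjusted p = 0.0115).

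How many genes passed rested on single libraries. Without WT day 5 replicate 4 the count was 884, without KO day 5 replicate 1 244, and without any other single library between 27 and 103, against 85 with all. The call of Pld4 ended in 13 of the 16 fits that leave out 1 library of these groups (adjusted p up to 0.12), that of Mx1 in 7 (up to 0.0776) and that of Siglec1 in 2 (up to 0.056). Those of Ccl2, Clec4a3 and Zbtb16 held in all 16. By limma on log2(FPKM + 1) the calls of Ccl2, Clec4a3, Mx1, Pld4 and Siglec1 ended, and with no filter that of Zbtb16 ended too.

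**Figure D5:**
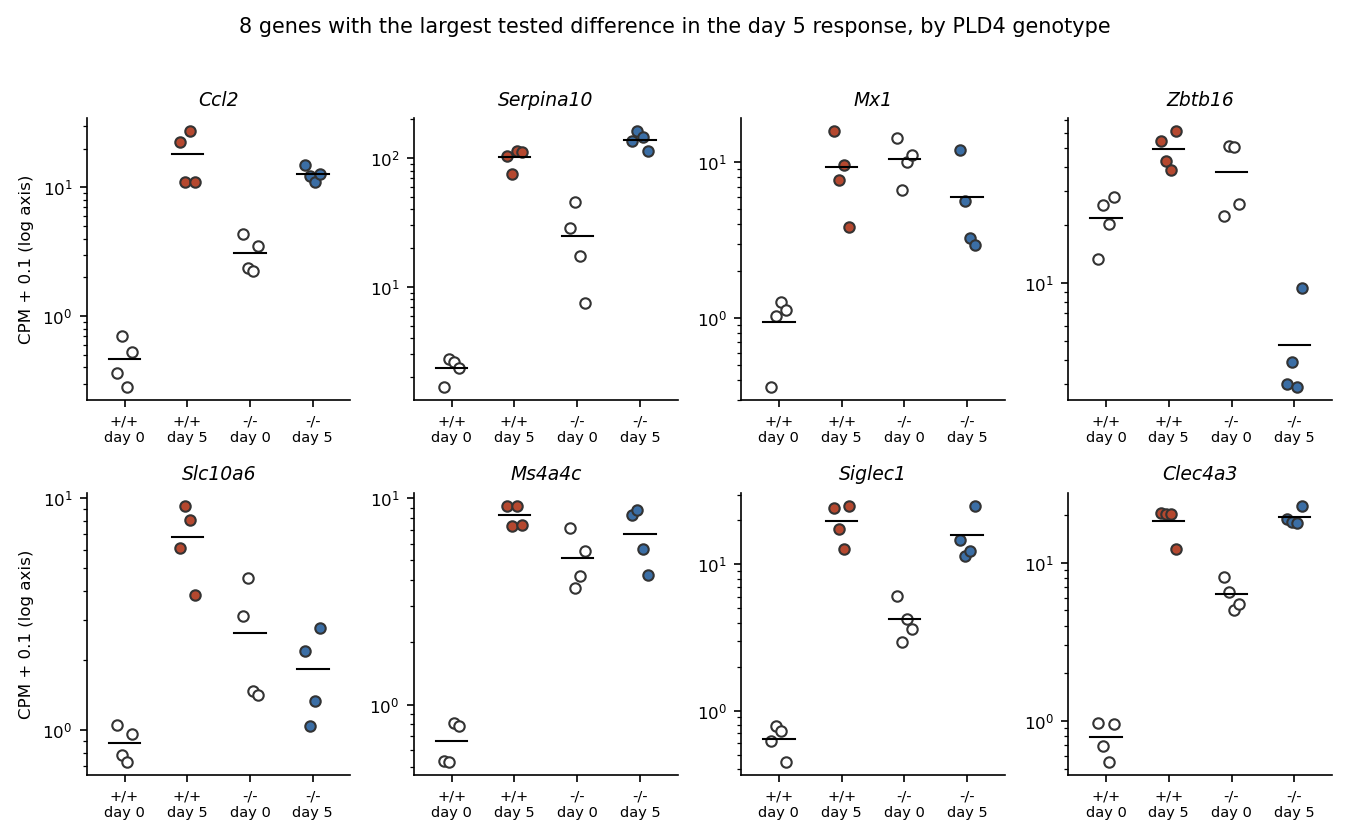
Level in each library (CPM on a log axis, with 0.1 added) of the 8 genes with the largest tested difference in the day 5 response between libraries labelled PLD4+/+ and PLD4-/-, at day 0 (open) and day 5 (filled). Bars are means of 4 libraries. In 7 of the 8 the day 0 libraries labelled PLD4-/- lie above those labelled PLD4+/+, a gap that is part of the tested difference.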

How the data were processed

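Kidney RNA of 24 mouse libraries was extracted with TRIzol and made into stranded mRNA libraries from 1 ug of total RNA, per the labels. The submitters' processing notes name bcl2fastq 2.16, STAR 2.5, Cufflinks and the mm9 build. The annotation, the counting rule and its use of strand are not given in the sources used here, so values of overlapping genes, antisense genes and near-identical copies are uncertain. The authors deposited raw counts per gene symbol (23955 symbols) and, in a second table, FPKM, which scale fragments by transcript length and depth. Each column was assigned by its name, and 0 columns of per-sample values were unassigned.

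Counts were tested in R 4.3.3 with edgeR 4.0.16 (TMM scaling, filterByExpr with a minimum count of 10 and total of 15, quasi-likelihood test) over all 24 libraries in 6 groups, with 18 residual degrees of freedom and 15080 genes tested. The response of day 5 over day 0 and its difference between genotypes were contrasts of that fit. Alternatives were RLE factors, total counts, other filters, DESeq2 1.42.0, limma 3.58.1 on log2 values of the deposited FPKM plus 1 or 0.1, fits of the compared groups alone, a replicate block, and leaving out libraries. The edgeR fit was tested on simulated data. Promoters come from RefSeq on GRCm38.p6 and were joined by symbol, never by mm9 coordinates, and the letters of the motifs were set, and shortened once, after the data were seen. Depth and its range are given with the results, and counting intervals are exact and cover counting error only.

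The members and the 72 gene lists were chosen with earlier results of these data known. The naming rule took 24 key genes, the 12 largest rises and 12 largest falls, the 8 largest gains and 8 largest losses in CPM, the 8 steadiest abundant genes, of each list up to 3 called members in its main direction, 2 in the other and 2 abundant ones that were not called, and the 8 largest differences between genotypes. Outside that rule, after their values were seen, were chosen B2m, Cldn4, Col4a1, Cp, Ctgf, Cxcl2, Cyp24a1, Egfr, Erbb3, Gsdmd, Il1b, Kl, Krt19, Krt5, Mlkl, Nfkbia, Psmb9, Slc2a3, Slc34a2, Trp63 and Trpv6. The printed stretches of promoters other than that of Havcr1 were chosen the same way. The libraries of day 10 were not analysed here beyond their part in the filter, the scaling and the spread.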

Additional observations from a re-analysis of the deposited data

Results flagged for a closer look

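In 5 of 106 groups of 4 wild-type libraries the highest library stood far from the other 3, by its gap to the nearest over the whole range (Dixon's ratio), where chance flags about 1 in 20 groups. At day 5 Spp1 was 29122 CPM in replicate 3 and 20069 to 20756 in the others (ratio 0.924), and the summed urothelial markers were 299 CPM in replicate 3 and 167 to 182 in the others (0.889). Slc22a7 was 108 CPM in replicate 1 and 30.3 to 38.6 in the others (0.894), and Cx3cr1 49.6 CPM in replicate 4 and 37.0 to 39.0 in the others (0.844). At day 0 Kap was 64527 CPM in replicate 1 and 55703 to 57123 in the others (0.839).

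Of the 239 genes named, 12 differed between genotypes in the day 5 response, at an adjusted p under 0.05. The test was that of the difference itself in edgeR, which 0.564% of all genes passed. Ccl2, Clec4a3, Mx1, Serpina10, Siglec1 and Zbtb16 were named because their difference between genotypes was among the largest. The count of 12 is thus partly set by that choice and cannot be compared with the share of all genes. The difference (libraries labelled PLD4+/+ minus those labelled PLD4-/-, log2) was 3.51 for Ccl2, 3.06 for Clec4a3, 4.26 for Mx1, 3.24 for Siglec1, 4.17 for Zbtb16 and 1.75 for Pld4. Pld4 at day 0 did not follow its labels, so these directions rest on the labels as given. Serpina10, the coagulation inhibitor, had a difference of 2.99, with responses of 5.50 ± 0.41 and 2.51 ± 0.34 in the same order. The dendritic cell integrin Itgax (2.48), the fractalkine receptor Cx3cr1 (1.19), the adhesion molecule Vcam1 (1.67) and the cytochrome Cyp1b1 (1.66) rose more in libraries labelled PLD4+/+. Prox1, which fell by 2.66 on the log2 scale there, had a response of -0.50 ± 0.33 in libraries labelled PLD4-/-, a difference of -2.16.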

How the results depend on the processing

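With all genes, 4673 were higher and 3863 lower by TMM, 8280 and 1525 by total counts, which were added after seeing the data. On the FPKM scales, in the order log2(FPKM + 1), log2(FPKM + 0.1) and log2(FPKM + 1) with no filter, 8464, 8625 and 9016 were higher and 917, 858 and 880 lower. Leaving out 1 library gave 4193 to 5354 higher and 2937 to 3965 lower. Of the named genes, Ccl25, Cdh16, Hnf4a, Kap and Slc34a1 lost their call by total counts, and 11 that were not called became so, all higher (Anapc5, Csf1r, Ctsb, Fkbp5, Il6st, Maf, Pld3, S100a9, Ubb, Yap1 and Ythdf3). On the FPKM scales, where the scale, filter and test change together, 16, 15 and 34 lost their call. With no filter these were Acsm2, Bmp7, Cat, Ccl25, Cdh16, Col4a3, Csf3r, Cubn, Cxcl2, Cxcl5, Erbb3, Fgf1, Fgf7, Hk3, Hnf4a, Irx1, Kap, Kl, Krt17, Krt5, Krt80, Myh11, Nlrc4, P4hb, Pgam1, Pgk1, S100g, Slc11a2, Slc12a1, Slc22a6, Slc2a3, Slc34a1, Trp63 and Wnt7a. On log2(FPKM + 0.1) Slco1a1 lost it beyond these, and 13, 13 and 13 gained one. The sign turned for Ccl25 (0.0539 on log2(FPKM + 1) with and without a filter and 0.0583 on log2(FPKM + 0.1)), Cdh1 (0.51, 0.51 and 0.52) and Ythdf3 (0.59, 0.59 and 0.62, and 0.44 by total counts), where the cause was not tested. Without 1 library or another the calls of Ccl25, Fabp4, Hnf4a, Kap, Krt5, Slc22a6, Slc34a1, Slc6a19, Slco1a1, Trp63 and Zbtb16 ended, 2 to 8 genes at a time, and no sign turned.

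The difference between genotypes (80 larger and 5 smaller in libraries labelled PLD4+/+) gave 227 larger and 36 smaller by DESeq2, 491 larger and 19 smaller in a fit of the 16 libraries alone, 596 larger and 49 smaller without WT day 10 libraries 2 and 3, 131 larger and 5 smaller by total counts and 6 larger and 0 smaller by limma on log2(FPKM + 1), or 5 larger and 3 smaller with no filter. At an unadjusted p under 0.05 limma on log2(FPKM + 1) had 498 smaller. Leaving out 1 library gave 24 to 605 larger and 3 to 279 smaller.

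Counts of list members called in the direction most of them took by TMM, where they moved by over 1.5 times, follow with the 3 FPKM values (limma) in the order above. Under another scaling the larger number can lie in the other direction, as given for some lists with the results. Where limma called 0, its counts at an unadjusted p under 0.05 were 2 for glycolysis with no filter and 0, 0 and 0 for proteasome subunits. B and plasma cell had 5 called, and 9 by total counts, 3 in the fit of the 8 libraries alone, 3 with the CPM filter and 3, 3 and 4 on the FPKM scales. EGF family had 4 called, and 2 to 4 leaving out 1 library. FGF, PDGF, HGF and IGF signals had 10 called, and 17 by total counts. NK and cytotoxic had 10 called, and 5 in the fit of the 8 libraries alone and 5, 7 and 7 on the FPKM scales. Schwann cell and nerve had 4 called, and 2, 3 and 4 on the FPKM scales. T cell had 16 called, and 11, 16 and 9 on the FPKM scales. Wnt signals had 14 called, and 23 by total counts. Antioxidant and NRF2 targets had 16 called, and 8 by total counts and 4, 4 and 3 on the FPKM scales. Cholesterol synthesis had 16 called, and 8, 8 and 7 on the FPKM scales. Circadian clock had 4 called, and 12 by total counts, 7 in the fit of the 8 libraries alone and 13, 13 and 11 on the FPKM scales. Citric acid cycle had 20 called, and 10, 10 and 7 on the FPKM scales. Collagen processing and crosslinking had 12 called, and 18, 19 and 18 on the FPKM scales. Colony-stimulating factors and receptors had 9 called, and 12, 15 and 10 on the FPKM scales. Cytochrome P450 and conjugation had 24 called, and 15 by total counts, 12, 8 and 7 on the FPKM scales and 14 to 23 leaving out 1 library. Cytosolic ribosomal proteins had 19 called, and 63 by total counts, 29 without WT day 10 libraries 2 and 3, 69, 69 and 68 on the FPKM scales and 12 to 36 leaving out 1 library. Endocytic receptors of the proximal tubule had 9 called, and 5 by total counts, 4, 4 and 3 on the FPKM scales and 5 to 10 leaving out 1 library. Glucocorticoid responsive had 7 called, and 11 by total counts and 11, 11 and 11 on the FPKM scales. Gluconeogenesis, ammonia and arginine metabolism had 8 called, and 4 by total counts, 13 by RLE factors, 14 by DESeq2, 17 in the fit of the 8 libraries alone, 17 without WT day 10 libraries 2 and 3, 16 with a replicate block, 3, 3 and 3 on the FPKM scales and 4 to 10 leaving out 1 library. Glucose and amino acid transporters had 16 called, and 8 by total counts, 8, 7 and 4 on the FPKM scales and 8 to 17 leaving out 1 library. Glycolysis had 8 called, and 4 by total counts and 1, 1 and 0 on the FPKM scales. Heat shock proteins had 5 called, and 3 by total counts and 2, 2 and 2 on the FPKM scales. Hypoxia targets had 9 called, and 2 by total counts and 2, 2 and 1 on the FPKM scales. Intercalated cell had 9 called, and 6, 5 and 5 on the FPKM scales. Interferon-inducible GTPases had 9 called, and 15, 17 and 14 on the FPKM scales. Interleukin-6 family and STAT3 had 11 called, and 18 by total counts. Lysosome had 13 called, and 6 by total counts and 2, 2 and 2 on the FPKM scales. Mitochondrial regulators had 11 called, and 7 by total counts and 4, 4 and 3 on the FPKM scales. Neutrophil had 3 called, and 10 by DESeq2, 6 in the fit of the 8 libraries alone and 8 without WT day 10 libraries 2 and 3. Organic ion and drug transporters had 25 called, and 18, 11 and 13 on the FPKM scales and 14 to 25 leaving out 1 library. Phosphate, calcium, magnesium and vitamin D had 13 called, and 8, 7 and 4 on the FPKM scales. Podocyte had 9 called, and 14 by total counts and 14, 14 and 14 on the FPKM scales. Proteasome subunits had 18 called, and 1 by total counts and 0, 0 and 0 on the FPKM scales. Respiratory chain, nuclear encoded had 36 called, and 23 by total counts and 16, 16 and 15 on the FPKM scales. Sodium, chloride and potassium transport had 19 called, and 11, 9 and 6 on the FPKM scales. Unfolded protein and integrated stress response had 6 called, and 11 by total counts and 15, 15 and 14 on the FPKM scales. Urothelium had 5 called, and 3 by RLE factors, 3 with no low-count filter, 5, 5 and 3 on the FPKM scales and 3 to 5 leaving out 1 library. Vasoactive systems had 13 called, and 20 by total counts. Water channels and vasopressin had 7 called, and 3 by total counts, 1, 1 and 2 on the FPKM scales and 4 to 7 leaving out 1 library.

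Whether the replicate numbers pair the libraries is not given by the labels and was not settled here. Deviations of same-numbered day 0 and day 5 libraries correlated at 0.123, 0.048, 0.130 and 0.089, all positive but not all over 0.1. Those of different numbers ran from -0.191 to 0.188. A replicate block moved the counts to 4677 higher and 4056 lower, from 4673 and 3863.

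With 4 libraries a day, a small change is called only where the spread is small. In the main fit p-values cover a spread between libraries that is estimated over all 24.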
